A study of Homo sapiens with 30 samples.

Results

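The unfolded protein response genes ERN1, ATF6, XBP1, ATF4, DDIT3, CREB3L2, HSPA5, DNAJB9, EDEM1 and HERPUD1 were examined for open chromatin in their neighbourhood. They were chosen by name, with earlier results of these data known. Every peak whose summit lay within 50 kb of the body of 1 of these 10 genes was taken, and the peaks of all libraries were merged into fixed regions reaching 250 bp to either side of a summit. This gave 567 regions out of 683008 in the whole series, holding 4807 of its 4651448 peak entries. A region is named here by its gene and the distance of its centre from the gene start, positive in the direction of transcription, so that EDEM1 +77.6 kb lies 77.6 kb past the start of EDEM1. A region within 50 kb of a gene is its neighbour and is not shown to act on it.

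The 30 libraries are Omni-ATAC libraries, in which the Tn5 transposase inserts adapters into open DNA. Both cell lines, LNCaP and VCaP, are established lines of human prostate cancer that respond to androgen, and VCaP is known for a TMPRSS2-ERG fusion. All cells, controls included, were grown for 48 hours in medium with 8% charcoal-treated serum, which is low in steroids, and then for 24 hours with vehicle or the synthetic androgen R1881. LNCaP received 0.03, 0.06, 0.1 or 10 nM and VCaP 0.01, 0.03, 0.06 or 10 nM, with 3 libraries in each of the 5 groups of a line. LNCaP was kept in RPMI and VCaP in DMEM, so line and medium cannot be told apart. Nothing in the labels says whether the replicates were separate cultures, so the p-values measure the spread between these libraries, which may be technical.

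When unfolded proteins build up in the endoplasmic reticulum, 3 membrane sensors start the unfolded protein response. IRE1, the product of ERN1, splices the XBP1 messenger RNA. PERK favours translation of ATF4, which acts upstream of DDIT3 (CHOP), and ATF6 is cut in the Golgi to release a transcription factor. Together they raise chaperones such as HSPA5 (BiP) and DNAJB9 (ERdj4) and the degradation factors EDEM1 and HERPUD1, and prostate cells, which secrete large amounts of protein, are known to couple this response to androgen signalling.

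Some known targets of this response carry the endoplasmic reticulum stress element near their start, and the promoters below are shown because they mark which starts in the set hold one. The classical element was searched as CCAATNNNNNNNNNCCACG and the second form, ERSE-II, as ATTGGNCCACG, on both strands of the 300 bases around each start (250 before, 50 after). The classical form was found in 22 of 27305 RefSeq promoters (0.0806%), HSPA5 and XBP1 among them, and ERSE-II in 15 (0.0549%), HERPUD1 among them. The 150 bases before the start are printed 5′ to 3′ on the gene's strand (RefSeq, GRCh38.p14), with the element in capitals. HSPA5 is chr9:125241344-125241493 on the minus strand, XBP1 chr22:28800570-28800719 on the minus strand, HERPUD1 chr16:56931992-56932141 on the plus strand and EDEM1, with neither element, chr3:5187557-5187706 on the plus strand.
HSPA5: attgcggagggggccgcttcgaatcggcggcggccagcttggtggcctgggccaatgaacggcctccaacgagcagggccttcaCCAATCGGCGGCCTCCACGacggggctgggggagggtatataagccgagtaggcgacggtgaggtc
XBP1: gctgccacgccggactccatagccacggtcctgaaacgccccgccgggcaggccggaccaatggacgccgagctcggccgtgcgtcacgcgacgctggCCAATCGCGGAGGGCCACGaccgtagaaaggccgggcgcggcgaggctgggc
HERPUD1: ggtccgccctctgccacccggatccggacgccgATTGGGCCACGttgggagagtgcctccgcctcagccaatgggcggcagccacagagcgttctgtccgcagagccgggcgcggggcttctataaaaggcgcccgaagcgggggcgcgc
EDEM1: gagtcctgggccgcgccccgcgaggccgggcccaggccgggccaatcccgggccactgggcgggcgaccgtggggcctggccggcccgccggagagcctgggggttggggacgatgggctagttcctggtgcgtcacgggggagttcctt

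The element starts 66 bases before the HSPA5 start, 52 before the XBP1 start and 117 before the HERPUD1 start. The ATF4 element core, searched as TGATGNAA, was found in 1003 promoters (3.67%), among them HERPUD1, on the minus strand. The XBP1-binding core TGACGTGG, found in 217 promoters (0.795%), and the androgen response element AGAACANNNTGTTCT, found in 1 (0.00366%), were not in the 300 bases of any of the 10 genes. In the 64 other genes of the response, of which 57 had a promoter entry, the classical element was in 5 (CALR, CANX, CRELD2, ERO1B and HSP90B1) and ERSE-II in 2 (HYOU1 and SDF2L1). These are matches of letters and show no binding.

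The peak lists give no read counts, so each region was scored by rank. In each library, the peaks were ordered by −log10 p from the weakest, at 0, to the strongest, at 100, and a region took the rank of the best peak whose summit was nearest to it. A rank of 0 means that no peak was listed there or that it tied for the weakest kept. LNCaP lists had from 135254 to 223998 peaks and VCaP lists from 105034 to 170787, so every list was first shortened to the shortest of its line, and below a peak is called listed when it was kept. A difference is given in percentile points with its standard error (SE), and called when limma's p, adjusted over all regions, was under 0.05. The number of reads is unknown, but a background pileup solved from the listed values ran from 3.06 to 5.26 in LNCaP and from 1.78 to 2.74 in VCaP, apart from 1.14 and 1.09 in VCaP vehicle replicates 1 and 2. Median fold enrichments ran from 2.57 to 4.49 in LNCaP replicate 5 and from 3.69 to 5.59 in the other LNCaP replicates, and from 2.82 to 3.11 in VCaP replicate 2 and from 2.94 to 4.79 in the other VCaP replicates, so that the ranges overlapped. Luminal genes HOXB13, FOXA1 and KRT18 had a peak within 1 kb in all 15 libraries of each line, KRT8 in 1 and 6, and KLK3 in 15 and 0. Of the basal, immune and stromal markers, TP63, KRT14 and PTPRC had none and COL1A2 had one in 15 and 11, while the others had one in at most 7 libraries of a line. The androgen target FKBP5 had a region 117.5 kb from its start with group means of 0 in LNCaP vehicle and 62.6, 84.5, 89.6 and 94.1 from 0.03 to 10 nM. In VCaP another FKBP5 region, 160.7 kb from the start, had means of 0 in vehicle, 5.36, 0 and 0 from 0.01 to 0.06 nM and 65.8 at 10 nM. These are different regions picked from 128 within 50 kb of FKBP5, so the lines are not compared at 1 site. A rank change cannot tell a change in the share of cells with an open site from a change within each cell.

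The starts of all 10 genes were open in every library. No rank there was called different between 10 nM and vehicle in either line. Few starts were called genome-wide: 8.4% (LNCaP) and 1.86% (VCaP) of tested regions within 1 kb of a protein-coding gene start. Of all tested regions, 26.3% and 9.39% were called. The lack of calls at 10 starts is therefore not a result about these genes. Within 1 kb of each start, the strongest region had a peak in all 15 libraries of both lines. Its median rank ran from 80.8 at ATF6 to 99.6 at DNAJB9 in LNCaP, and from 66.0 to 99.9 at the same genes in VCaP. DNAJB9, an endoplasmic reticulum co-chaperone of BiP, ranked between 99.3 and 99.9 in LNCaP and at 99.8 or above in VCaP. CREB3L2, a membrane-bound transcription factor of the ATF6 type, ranked from 95.9 to 99.2 and from 98.8 to 99.8. HSPA5, the main chaperone of the compartment, ranked from 98.1 to 99.5 and from 94.4 to 99.5.

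ATF6 had the weakest start of the 10, and its VCaP ranks were the most spread. The ATF6 region 0.1 kb from the start ranked at 83.2, 83.7 and 81.9 in LNCaP vehicle and at 77.5, 80.9 and 69.4 at 10 nM, so that every library at 10 nM lay below every vehicle library. In VCaP it ranked at 84.5, 71.3 and 63.8 in vehicle and 59.4, 74.6 and 62.6 at 10 nM, and the groups overlapped. At 0.01 nM, VCaP replicate 2 had it among the weakest peaks kept. At the start of DDIT3, chr12:57520377-57520877, the LNCaP groups overlapped: vehicle gave 97.1, 97.4 and 85.6 and 10 nM 98.1, 88.4 and 84.9. Replicate 5 was the lowest each time, and replicate 4 was lower at 10 nM than in vehicle. The smallest adjusted p among these 10 regions was 0.0805 in LNCaP and 0.232 in VCaP (limma, Benjamini-Hochberg over all regions), and 2 and 0 of them had an unadjusted p under 0.05.

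**Figure D1:**
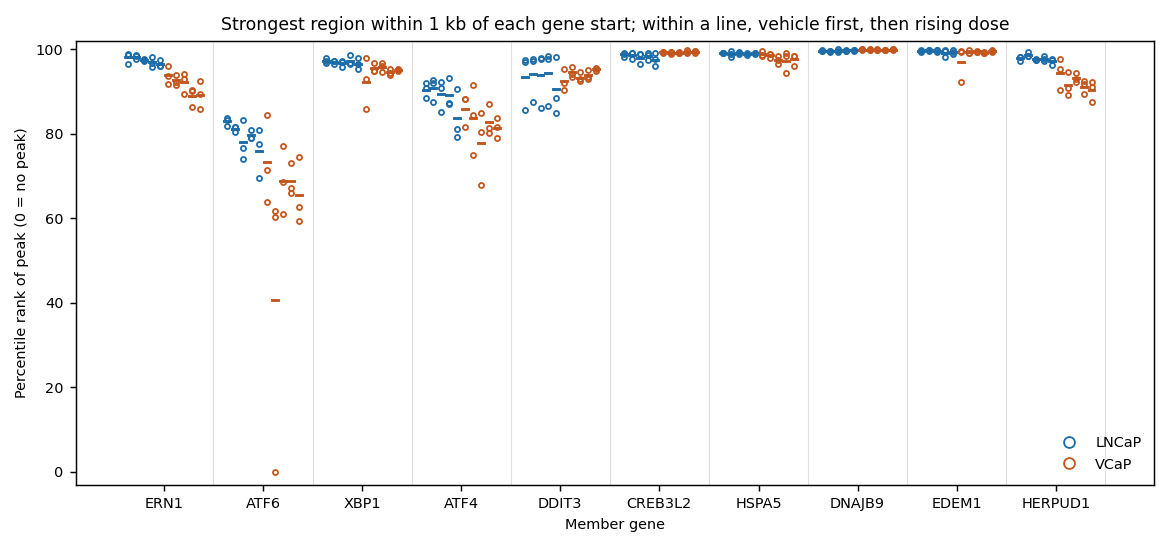
Percentile rank of the strongest region within 1 kb of each gene start (y axis) for the 10 genes (x axis). Each circle is 1 library, bars are group means of 3 libraries, and groups run from vehicle to the highest dose, LNCaP first. DNAJB9, CREB3L2, HSPA5 and EDEM1 sit near 100 throughout, and ATF6 is lowest, its medians being 80.8 (LNCaP) and 66.0 (VCaP).

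Around these starts, 10 nM R1881 changed a similar share of regions as it did across the genome. In LNCaP, 166 of the 567 regions had a peak in at least 3 of the 15 libraries and were tested, and 42 (25.3%) were called at an adjusted p under 0.05, against 26.3% of all 171246 regions tested. The calls were 19 higher and 23 lower (11.4% and 13.9% of the members' regions), against 16.1% higher and 10.2% lower genome-wide. The median difference over the members' regions was −0.61 percentile points. In VCaP, 142 regions were tested and 14 (9.86%) were called, against 9.39% of 128229, with 10 higher and 4 lower, against 6.66% and 2.73%. Neither share is a result about these genes. Some called regions met the minimum of 3 libraries only through the group in which they were high, so the filter favoured a difference. They were ATF6 +21.9 kb, CREB3L2 −36.9 kb and ERN1 +78.6 kb in LNCaP and CREB3L2 −36.9 kb, DDIT3 −23.4 kb, HERPUD1 −8.0 kb and ERN1 +78.6 kb in VCaP, through the libraries at 10 nM, and ERN1 +55.2 kb in VCaP, through vehicle. Their ranks are given below with no p. Regions not called met it that way too: in all 10 (through 10 nM) and 7 (through vehicle) in LNCaP, and 15 and 11 in VCaP. Among the 150 LNCaP and 117 VCaP regions that met the minimum otherwise, the calls were 39 (16 higher, 23 lower) and 9 (6 higher, 3 lower). The like share over all regions was not computed.

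Which direction led in LNCaP depended on how the lists were made comparable. With all entries as deposited, 29 regions were higher and 8 lower, and with peaks ranked by fold enrichment 15 were higher and 36 lower. In VCaP, leaving out vehicle replicates 1 and 2, the libraries of thin background, left 2 calls (EDEM1 −21.8 kb and CREB3L2 −36.9 kb) with 1.7% called genome-wide, and the single vehicle library then had to be assumed to vary like the other groups. Leaving out all 5 libraries numbered 2 left 10, with 10.8% genome-wide. Leaving out VCaP 10 nM replicate 1 left 8 and replicate 4 left 9.

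Most calls lay away from gene starts, in these neighbourhoods and genome-wide. In LNCaP, 3 of 35 tested members' regions within 1 kb of a protein-coding gene start were called (8.57%, against 8.4% of all such regions), all lower, and 39 of 131 farther away (29.8%, against 28.2%). In VCaP, 0 of 35 were called by limma near starts (3 had an unadjusted p under 0.05), against 1.86% genome-wide, and 14 of 107 farther away (13.1%, against 10.6%). Peaks present in all 3 libraries at 10 nM and in no vehicle library were found at 8 regions in LNCaP (4.82%, against 10.7% of all regions) and at 8 in VCaP (5.63%, against 5.45%). The reverse, present in every vehicle library and absent at 10 nM, was found at 3 (1.81%, against 2.5%) and 5 (3.52%, against 1.64%).

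**Figure D2:**
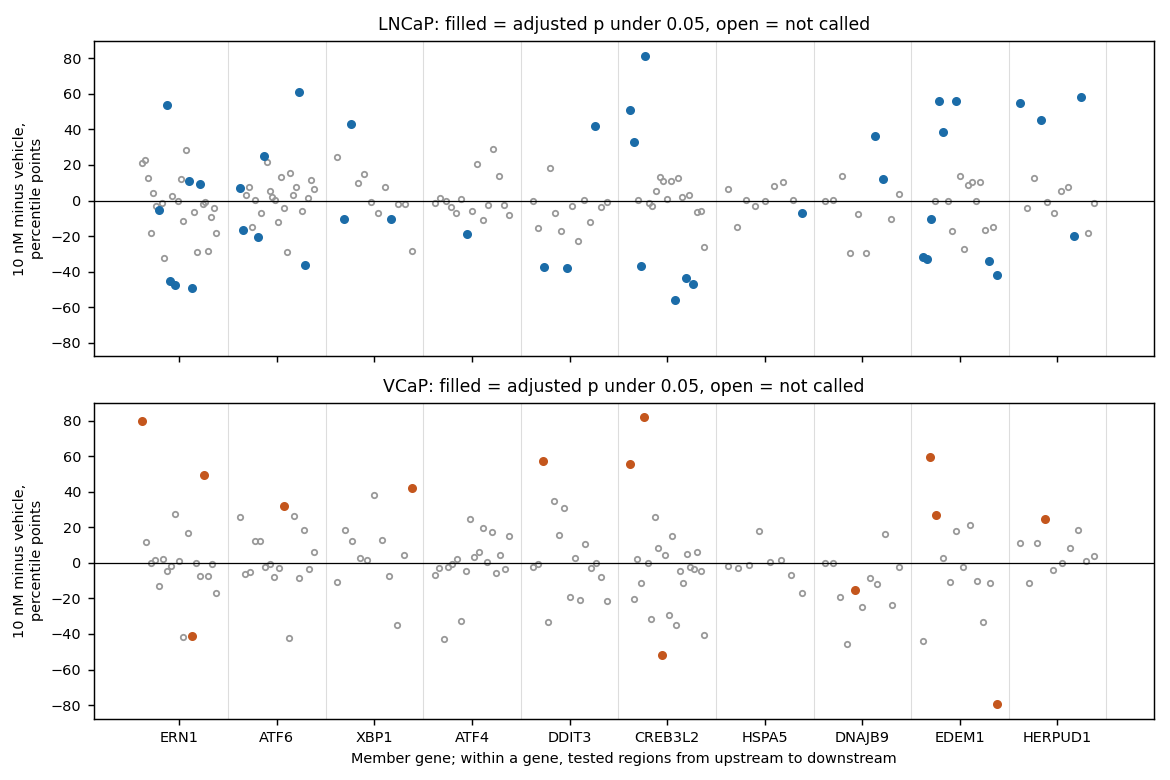
Difference in percentile rank between 10 nM and vehicle (y axis) at every tested region of each gene (x axis), LNCaP above and VCaP below. Filled points were called, 42 in LNCaP and 14 in VCaP, and lie on both sides of 0 at CREB3L2, EDEM1 and ERN1 in both lines.

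EDEM1, which passes misfolded glycoproteins on for degradation, had the fall with the smallest p of the set in LNCaP. Of its 66 regions, 19 were tested in LNCaP, with 3 called higher and 5 lower, and 12 in VCaP, with 2 higher and 1 lower. The strongest site past the gene in vehicle, EDEM1 +77.6 kb (chr3:5265076-5265576, 45.4 kb beyond the gene's end and nearer to it than to any other protein-coding gene), lost rank in both lines. In LNCaP vehicle it ranked at 97.1, 97.02 and 94.4. It ranked at 95.3, 95.4 and 92.9 at 0.03 nM, 92.6, 92.9 and 88.2 at 0.06 nM, 90.3, 85.5 and 76.4 at 0.1 nM and 57.6, 56.5 and 48.8 at 10 nM. Every library at 10 nM lay below every other LNCaP library, and the group means fell at each step of dose. The rank fell by 41.9 percentile points (SE 3.04, adjusted p = 1.38e-07) between vehicle and 10 nM, and by 35.6 between the low doses and 10 nM (adjusted p = 5.79e-07). The mean fall of 6.3 from vehicle to the low doses did not pass (adjusted p = 0.164).

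In deposited units, the same peak was number 3877 of 134964 on chromosomes 1 to 22, X and Y in LNCaP vehicle replicate 3, and number 57276 of 167066 in 10 nM replicate 3. Its fold enrichment over local background was 19.7, 19.97 and 9.08 in vehicle and 8.62, 9.25 and 8.15 at 10 nM. The fold ranges therefore overlapped, through vehicle replicate 5, while the ranks did not.

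In VCaP the peak was lost. It ranked at 84.04, 76.3 and 78.2 in vehicle, 53.5, 20.9 and 68.4 at 0.01 nM, 32.5, 0 and 5.91 at 0.03 nM and 18.2, 0 and 28.5 at 0.06 nM. No library at 10 nM listed it, in the shortened or in the full lists. The rank fell by 79.5 percentile points (SE 15.1, adjusted p = 0.0023) at 10 nM. At the low doses it fell by 54.2 percentile points (SE 12.3, adjusted p = 0.0424), against the 6.3 in LNCaP, a difference between the lines that was not tested. The difference between the lines in the change at 10 nM was tested and not called. Both VCaP calls were lost without vehicle replicates 1 and 2, which left 1 vehicle library. The low-dose call was also lost without 0.01 nM replicate 1 or 0.03 nM replicate 2 or 4. Leaving out any single 0.06 nM or vehicle library lost it too (adjusted p for all these single libraries from 0.0536 to 0.129). Other settings that lost it were all entries as deposited, assignment by overlap, ranking by fold and no filter on regions. Fitting only the compared groups, or leaving out the libraries numbered 2, lost it as well.

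Other falls at EDEM1 were called in LNCaP. EDEM1 +48.8 kb, 16.5 kb past the gene, ranked at 69.4, 71.95 and 51.04 in vehicle and 31.1, 14.6 and 45.1 at 10 nM, with no overlap, and fell by 33.9 percentile points (SE 7.7, adjusted p = 0.00345). Across the low doses it ranged from 52.2 to 72.3, and 10 nM was lower than these by 31.9 as well (adjusted p = 0.00197). No VCaP library listed it. The 3 remaining falls lie upstream. EDEM1 −42.9 kb fell by 10.6 percentile points (SE 2.47, adjusted p = 0.004) from 87.7, 86.9 and 86, and by 6.5 between the low doses and 10 nM (adjusted p = 0.0382). The regions EDEM1 −48.9 kb and EDEM1 −49.4 kb, 513 bp apart, fell by 32.9 and 31.8 (adjusted p = 0.0457 and 0.0401), each with at least 1 library at 0 at 10 nM.

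The called rises at EDEM1 lay at −21.8, −7.8 and +1.4 kb. EDEM1 −21.8 kb (chr3:5165695-5166195) ranked at 54.8, 28.7 and 0.0641 in LNCaP vehicle and 89.1, 77.9 and 84.4 at 10 nM. In VCaP it ranked at 62.9, 0 and 20 and 85.98, 89.2 and 86.8. It rose by 55.9 percentile points (SE 13.8, adjusted p = 0.0061) in LNCaP and by 59.7 percentile points (SE 13.1, adjusted p = 0.00612) in VCaP, with no overlap between the groups in either line, and the low doses lay between them on average. EDEM1 −7.8 kb rose by 38.7 percentile points (SE 9.15, adjusted p = 0.00458) in LNCaP and by 27.1 percentile points (SE 6.75, adjusted p = 0.014) in VCaP, where it reached 93.2, 94.2 and 90.4 at 10 nM. EDEM1 +1.4 kb, inside the gene, rose by 55.9 percentile points (SE 15.1, adjusted p = 0.011) in LNCaP, and its vehicle ranks were widely spread at 16.4, 0 and 50.9.

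These EDEM1 calls differed in how they held. The rise at −21.8 kb was kept in LNCaP in all 17 alternatives run, and in VCaP in all but the fit of only the compared groups (adjusted p = 0.107). In LNCaP the call was lost at −49.4 kb without any single 10 nM library or vehicle replicate 3 or 4 (adjusted p from 0.089 to 0.147), at −48.9 kb without 10 nM replicate 4 or 5 or any single vehicle library (adjusted p from 0.0552 to 0.188) and at +1.4 kb without vehicle replicate 4 (adjusted p = 0.0564). At −42.9 and +48.8 kb it was lost with all entries as deposited and with only the compared groups, and at +48.8 kb also at a −log10 q of at least 5. At +1.4 kb it was also lost when peaks were ranked by fold or assigned by overlap (adjusted p up to 0.285). For 10 nM against low doses, −42.9 kb was lost without any single 0.03 nM library, 0.06 nM replicate 3 or 5, 0.1 nM replicate 3 or 5, or 10 nM replicate 3 or 5 (adjusted p from 0.0509 to 0.279) and +1.4 kb without 0.03 nM replicate 3 or 4, 0.06 nM replicate 3 or 4, any single 0.1 nM library, or any single 10 nM library (adjusted p from 0.0594 to 0.2). In VCaP the rise at −7.8 kb was lost without 10 nM replicate 1 or 2 (adjusted p = 0.0501).

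**Figure D3:**
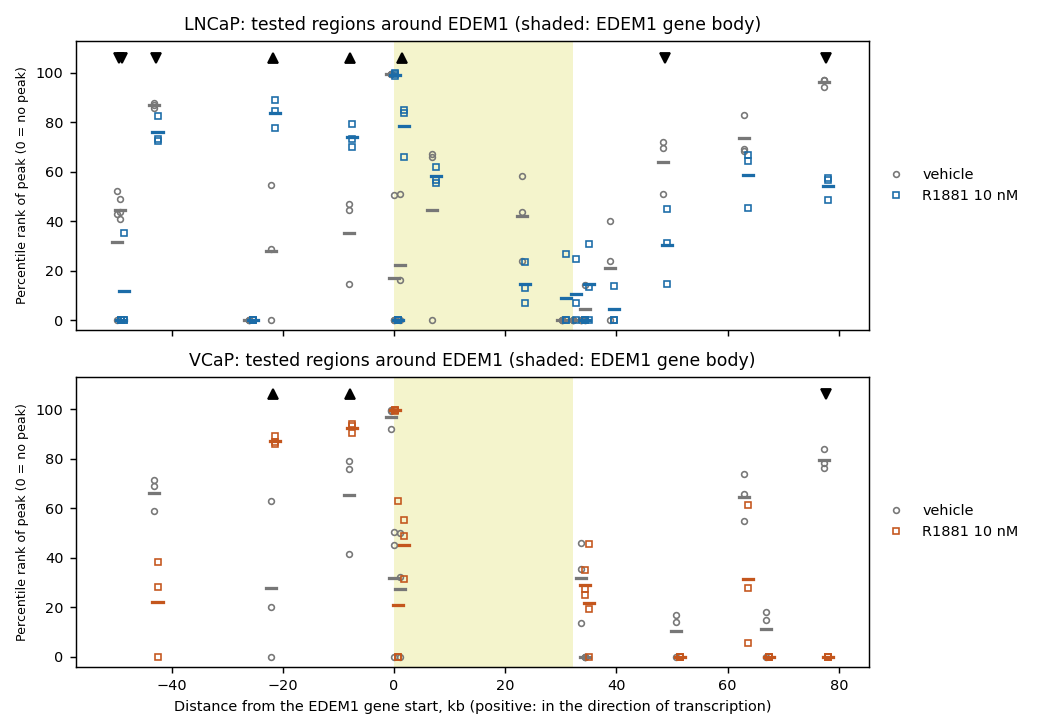
Percentile rank (y axis) at every tested region against its distance from the EDEM1 start in kb (x axis), LNCaP above and VCaP below. Grey circles are vehicle libraries, coloured squares 10 nM libraries, bars group means, and triangles at the top mark called rises (pointing up) and falls (pointing down). The start stays near 100, while +77.6 kb falls in both lines and −21.8 and −7.8 kb rise in both.

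ERN1, the gene of the sensor IRE1, had 28 tested regions in LNCaP (3 higher, 4 lower) and 19 in VCaP (2 higher, 1 lower), most of the called ones inside its own body. ERN1 +55.2 kb (chr17:64074706-64075206) was listed in every vehicle library and not at 10 nM in both lines. At the low doses it was absent in VCaP and still listed in some LNCaP libraries. In LNCaP it ranked at 47.1, 46.5 and 54.8 in vehicle, 41.7, 0 and 0 at 0.03 nM, 5.94, 0 and 0 at 0.06 nM, 24.8, 0 and 9.82 at 0.1 nM and 0 in all 3 at 10 nM. In VCaP it ranked at 59.5, 17.3 and 47.3 in vehicle and was 0 in all 12 treated libraries. In LNCaP the fall was 49.5 at 10 nM (adjusted p = 0.00237) and 40.3 at the low doses (adjusted p = 0.00748). The low-dose call was lost with all entries as deposited, with peaks assigned by overlap and without the libraries numbered 5 (adjusted p up to 0.111).

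ERN1 also gained regions. ERN1 +1.1 kb, next to the start, ranked at 21.7, 0 and 45.4 in LNCaP vehicle and at 77.5, 74.96 and 75.4 at 10 nM, and rose by 53.6 percentile points (SE 8.79, adjusted p = 0.000263). Most of this came at the low doses, where it rose by 41.7 (adjusted p = 0.00119). The region 592 bp nearer the start, chosen after its values were seen, differed by −32.5 (adjusted p = 0.205), and with peaks assigned by overlap the difference at +1.1 kb was −1.56. ERN1 +47.8 kb rose by 11.1 percentile points (SE 1.85, adjusted p = 0.000286) in LNCaP, from 85.5, 83.5 and 80.6 to 93.3, 93.3 and 96.4. In VCaP, ERN1 −26.3 kb, within the neighbouring gene TEX2, ranked at 0, 0 and 5.6 in vehicle and 86.9, 74.8 and 83.2 at 10 nM, and rose by 79.8 percentile points (SE 17.2, adjusted p = 0.0054). ERN1 +78.6 kb was at 0 in every vehicle library of both lines and reached 31.6, 61 and 55.9 in VCaP and 10.5, 4.14 and 12.5 in LNCaP at 10 nM.

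In LNCaP 2 more regions inside ERN1 fell. ERN1 +23.6 kb fell by 47.5 percentile points (SE 11.1, adjusted p = 0.00438), from 50.7, 60.1 and 31.6 to 0 in all 3 libraries. ERN1 +8.9 kb fell by 45.1 percentile points (SE 12.2, adjusted p = 0.0115). The LNCaP call was lost at +8.9 kb without 10 nM replicate 3 (adjusted p = 0.0565) and, with all entries as deposited, at +23.6 and +8.9 kb. When a peak counted only with its summit within 250 bp of the centre, the difference at +23.6 kb was 0. At +47.8 kb it was lost when peaks were ranked by fold (adjusted p = 0.547), and for VCaP 10 nM against low doses ERN1 −26.3 kb was lost without 0.06 nM replicate 1 or any single 10 nM library (adjusted p from 0.0532 to 0.158).

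ATF6, the sensor that becomes a transcription factor, had 26 tested regions in LNCaP (3 higher, 3 lower) and 16 in VCaP (1 higher). ATF6 +182.6 kb (chr1:161948714-161949214), inside the far end of this long gene, rose with dose in LNCaP. It ranked at 27.6, 28.7 and 0.0641 in vehicle, 56.8, 62.9 and 44.6 at 0.06 nM, 72.3, 63.1 and 57.1 at 0.1 nM and 82.03, 79.8 and 77.8 at 10 nM. It rose by 61.1 percentile points (SE 9.95, adjusted p = 0.000246) at 10 nM and by 28.8 at the low doses (adjusted p = 0.0402), the low-dose call being lost without 0.03 nM replicate 3 or 5, 0.06 nM replicate 3 or 4, 0.1 nM replicate 3 or 4, or vehicle replicate 5 (adjusted p from 0.0539 to 0.186). ATF6 +21.9 kb was listed at 10 nM alone, at 34.1, 25.3 and 16.1, with a mean of 25.2.

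The called falls at ATF6 lay upstream and beyond the gene. ATF6 −39.5 kb, within the body of FCRLB, ranked at 90.8, 90.7 and 91.7 in LNCaP vehicle and 78.6, 73.6 and 71.6 at 10 nM, and fell by 16.5 percentile points (SE 1.88, adjusted p = 1.15e-05). In the same gene ATF6 −42.4 kb rose by 6.9 (adjusted p = 0.0237). ATF6 −0.9 kb, just upstream of the start, fell by 20.7 percentile points (SE 6.0, adjusted p = 0.0173), and assigned by overlap its difference was 2.72 (adjusted p = 0.828). ATF6 +208.1 kb fell by 36.5 (adjusted p = 0.0399). In VCaP, ATF6 +58.5 kb rose from 0 in all 3 vehicle libraries to 39.5, 12.4 and 43.9 (adjusted p = 0.0458), and in LNCaP it ranked above 88 in every library. In LNCaP the call was lost at −42.4 kb without 10 nM replicate 4 or 5 or vehicle replicate 4 (adjusted p from 0.0519 to 0.123), at −0.9 kb without 10 nM replicate 5 or vehicle replicate 3 (adjusted p from 0.064 to 0.102) and at +208.1 kb without 10 nM replicate 3 or 5 or vehicle replicate 3 or 5 (adjusted p from 0.0847 to 0.147). In VCaP it was lost at +58.5 kb without 10 nM replicate 1 or 4 or any single vehicle library (adjusted p from 0.0884 to 0.128).

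CREB3L2 had the largest rise among the 10 genes in both lines. It had 21 tested regions in LNCaP (3 higher, 4 lower) and 22 in VCaP (2 higher, 1 lower). CREB3L2 −6.0 kb (chr7:138007798-138008298) had no peak in any vehicle library. In LNCaP it ranked at 13.5, 0 and 0 at 0.03 nM, 39.6, 41.5 and 0 at 0.06 nM, 39.4, 53.2 and 40.7 at 0.1 nM and 85.1, 77.5 and 80.7 at 10 nM. In VCaP it ranked at 0, 0 and 25.1 at 0.01 nM, 0, 0 and 7.12 at 0.03 nM, 69.1, 0 and 73.2 at 0.06 nM and 80.02, 87.03 and 78.6 at 10 nM. Every library at 10 nM lay above every other library of its line. The rank rose by 81.1 percentile points (SE 10.7, adjusted p = 4.21e-05) in LNCaP and by 81.9 percentile points (SE 16.7, adjusted p = 0.00385) in VCaP, and 10 nM exceeded the low doses by 55.8 and 62.5 (adjusted p = 0.000311 and 0.00735).

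The fold enrichment at CREB3L2 −6.0 kb reached 13.6, 9.21 and 10.7 in LNCaP and 8.41, 6.7 and 7.75 in VCaP at 10 nM. The region 791 bp farther upstream, chosen after its values were seen, fell in LNCaP by 36.7 (adjusted p = 0.0234), from 56.5, 28.7 and 64.04 to 4.02, 35.2 and 0, and in VCaP differed by −11.3 (adjusted p = 0.703). The rise was also called when any peak overlapping the window counted. It was lost in VCaP without vehicle replicates 1 and 2 (adjusted p = 0.104).

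CREB3L2 −36.9 kb (chr7:138038702-138039202) was listed at 10 nM alone in both lines. It ranked at 46.7, 29.8 and 22.3 in LNCaP and 52.5, 56.1 and 58.4 in VCaP, and was 0 in every other library. The means at 10 nM were 32.97 in LNCaP and 55.7 in VCaP. CREB3L2 −47.8 kb was at 0 in LNCaP vehicle and at 0.03 nM, reached 46.1, 39.9 and 29.8 at 0.1 nM and 52.8, 55.3 and 44.2 at 10 nM (adjusted p = 0.000911), and was 0 in all VCaP libraries.

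The other called falls at CREB3L2 lay inside the gene. CREB3L2 +57.7 kb ranked at 72.3, 65.5 and 71.9 in LNCaP vehicle, 56.1, 61.6 and 37.9 at 0.1 nM and 30.96, 10.1 and 0.0982 at 10 nM, and fell by 56.2 percentile points (SE 8.7, adjusted p = 0.000162). In VCaP it was 0 in all 3 libraries at 10 nM and 0, 50.4 and 54.9 in vehicle, which was not called (adjusted p = 0.199). CREB3L2 +99.3 kb and CREB3L2 +90.8 kb fell in LNCaP by 47.0 and 43.7 (adjusted p = 0.0091 and 0.0198), the second being lost without any single 10 nM library or vehicle replicate 3 or 4 (adjusted p from 0.0517 to 0.101). In VCaP, CREB3L2 +38.9 kb ranked at 86.4, 94.8 and 82.4 in vehicle and 55.9, 2.04 and 50.6 at 10 nM, and fell by 51.7 percentile points (SE 9.51, adjusted p = 0.00194), a call lost without vehicle replicates 1 and 2 (adjusted p = 0.133).

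**Figure D4:**
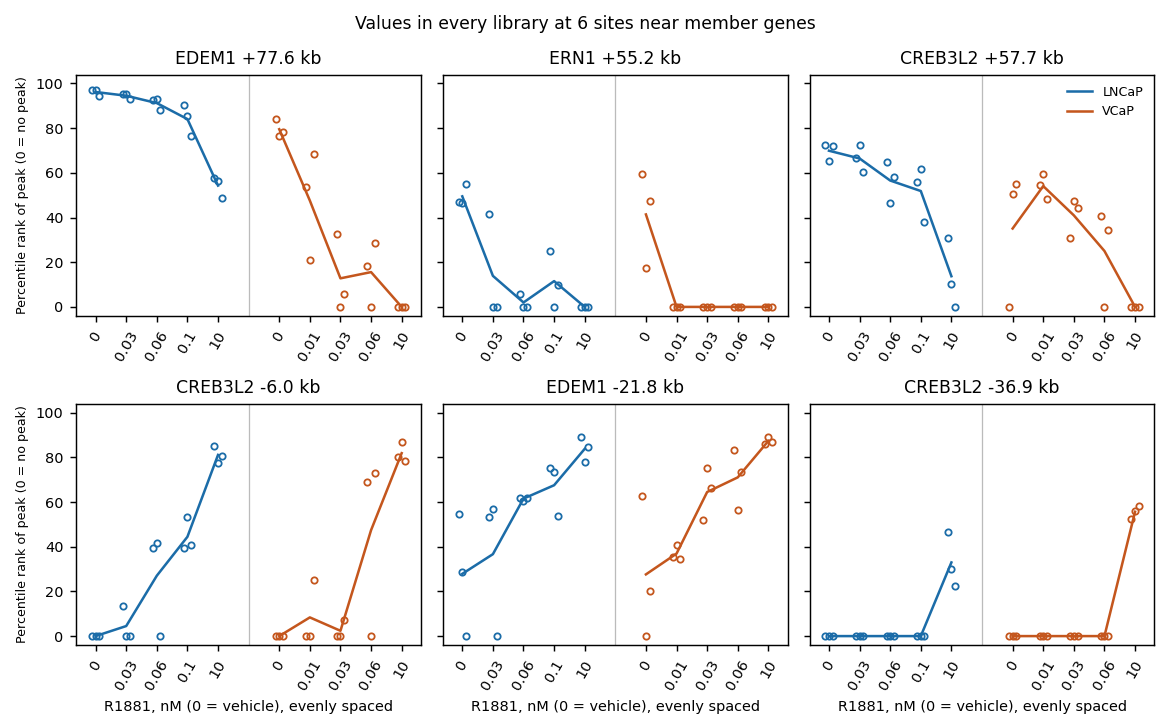
Percentile rank (y axis) by dose of R1881 in nM (x axis, evenly spaced and not to scale) at 6 sites, the regions called lower in both lines, the largest fall of LNCaP and the 3 largest rises called in both, LNCaP on the left and VCaP on the right of each panel. Circles are libraries and lines join group means of 3. The upper panels fall with dose, EDEM1 +77.6 kb from at least 94.4 in LNCaP vehicle to at most 57.6 at 10 nM, and the lower panels rise, CREB3L2 −6.0 kb from 0 to at least 77.5 in both lines.

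XBP1, whose spliced product is a transcription factor of the response, had 12 tested regions in LNCaP (1 higher, 2 lower) and 11 in VCaP (1 higher). XBP1 −18.1 kb (chr22:28818431-28818931) ranked at 29.4, 36.2 and 31.3 in LNCaP vehicle, 59.7, 66.2 and 66.5 at 0.06 nM and 71.4, 75.3 and 78.8 at 10 nM, with no overlap between vehicle and 10 nM. It rose by 42.9 percentile points (SE 7.84, adjusted p = 0.000638) at 10 nM and by 24.0 at the low doses (adjusted p = 0.0295). XBP1 −22.6 kb, on the same side, fell by 10.6 (adjusted p = 0.00456), and XBP1 +16.4 kb, within the gene CCDC117, by 10.2 (adjusted p = 0.000147), both from above 83 in vehicle. With all entries as deposited, both small falls lost their call (adjusted p up to 0.445). In VCaP, XBP1 +40.5 kb, 2.52 kb from the gene HSCB, rose from 0 in all 3 vehicle libraries to 48.6, 32.5 and 45.2 (adjusted p = 0.0199), a call lost without 10 nM replicate 1 or 4 or vehicle replicate 1 (adjusted p from 0.0551 to 0.0743).

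ATF4 and DDIT3 encode the transcription factors of the PERK branch. Of their tested regions, 6.67% (ATF4) and 21.4% (DDIT3) were called in LNCaP, against 26.3% of all regions. In VCaP, 6.67% of those of DDIT3 were called, against 9.39%. At DDIT3, 9 of the 14 tested LNCaP regions lay within 1 kb of a gene start, where 8.4% were called genome-wide. ATF4 had 15 tested regions in LNCaP, with 0 called higher and 1 lower, and 18 in VCaP with 0 called by limma (3 at an unadjusted p under 0.05). ATF4 +2.4 kb, 0.3 kb past the end of the gene, ranked at 84.7, 87.4 and 80.7 in LNCaP vehicle and 72.99, 59.7 and 64.1 at 10 nM, and fell by 18.7 percentile points (SE 3.37, adjusted p = 0.000576). The VCaP region of smallest p, ATF4 −30.2 kb, was 66.2, 0 and 62.6 in vehicle and 0 in all 3 at 10 nM, and was not called (adjusted p = 0.197).

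DDIT3 had 14 tested regions in LNCaP (1 higher, 2 lower) and 15 in VCaP (1 higher), and the called ones lay in the bodies of its neighbours. DDIT3 −16.0 kb, within DCTN2, ranked at 76.1, 77.9 and 77.6 in LNCaP vehicle and 33.5, 52.01 and 33.4 at 10 nM, and fell by 37.6 percentile points (SE 5.23, adjusted p = 6.49e-05). DDIT3 −1.8 kb, 0.47 kb from the start of MBD6, fell by 37.9 percentile points (SE 7.78, adjusted p = 0.00161), from 69.5, 74.6 and 64.5. DDIT3 +28.7 kb, within MARS1, rose by 42.2 in LNCaP (adjusted p = 0.0232), a call lost without 10 nM replicate 3 or 5 or vehicle replicate 3 or 4 (adjusted p from 0.0537 to 0.104). In VCaP, DDIT3 −23.4 kb, also within DCTN2, was listed at 10 nM alone, at 74.6, 62.7 and 34.7, and no shortened LNCaP list held it.

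The chaperone genes had 3 called regions in LNCaP and 1 in VCaP. In LNCaP 11.1% (HSPA5) and 20% (DNAJB9) of their tested regions were called, against 26.3% of all regions. In VCaP 9.09% of those of DNAJB9 were called, against 9.39%. At HSPA5, 5 of 9 tested LNCaP and 6 of 8 VCaP regions lay within 1 kb of a gene start. Such regions were called at 8.4% and 1.86% genome-wide, so these counts are not a result about the chaperones. HSPA5 had 9 tested regions in LNCaP, 0 higher and 1 lower, and 8 in VCaP with 0 called by limma (1 at an unadjusted p under 0.05). The LNCaP fall, HSPA5 +51.4 kb, sat 0.09 kb from the start of another gene, PPP6C, and moved from 96.4, 96.7 and 95.6 to 88.9, 91.3 and 87.3. It fell by 7.08 percentile points (SE 1.21, adjusted p = 0.000366) and lost its call with all entries as deposited (adjusted p = 0.0567). The VCaP region of smallest p, HSPA5 +7.5 kb, was 0 in vehicle and 0, 18.1 and 36.5 at 10 nM (adjusted p = 0.113). DNAJB9 had 10 tested regions in LNCaP (2 higher) and 11 in VCaP (1 lower). DNAJB9 +41.5 kb rose in LNCaP from 63.3, 72.3 and 80.7 to 83.6, 85.5 and 84.2, and as much at the low doses (13.6, adjusted p = 0.00373) as at 10 nM (12.3, adjusted p = 0.0104). Ranked by fold enrichment, its 10 nM difference was −9.73 (adjusted p = 0.234). DNAJB9 +31.5 kb rose by 36.2 from 0 (adjusted p = 0.0273), a call lost without any single 10 nM library or vehicle replicate 3 or 4 (adjusted p from 0.0597 to 0.0895). This call was also lost with peaks assigned by overlap and without the libraries numbered 5. The region 714 bp nearer the start, chosen after its values were seen, differed by −29.7 (adjusted p = 0.275). Whether the 2 changes are linked was not tested. In VCaP, the DNAJB9 region 18.1 kb past the end of the gene fell by 15.4 (adjusted p = 0.0386), a call lost without any single 10 nM library or vehicle replicate 1 or 2 (adjusted p from 0.0528 to 0.168).

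HERPUD1, a membrane protein of the degradation machinery, had 12 tested regions in LNCaP (3 higher, 1 lower) and 10 in VCaP (1 higher). HERPUD1 +35.8 kb (chr16:56967694-56968194), within the gene CETP, was at 0 in LNCaP vehicle and at 0.03 nM and rose through 39.2, 49.01 and 42.6 at 0.1 nM to 56.5, 52.1 and 65.6 at 10 nM. It rose by 58.1 percentile points (SE 9.01, adjusted p = 0.000163). HERPUD1 −42.8 kb, within SLC12A3, rose by 54.7 percentile points (SE 11.5, adjusted p = 0.00196), and at the low doses by 32.5 (adjusted p = 0.0452), the low-dose call being lost without any single 0.06 nM library, 0.1 nM replicate 3 or 4, or any single vehicle library (adjusted p from 0.0584 to 0.125). HERPUD1 −12.5 kb rose by 45.3 (adjusted p = 0.0207) and HERPUD1 +32.6 kb fell by 19.8 (adjusted p = 0.0203). The first of these was lost without 10 nM replicate 3 or 4 or vehicle replicate 4 or 5 (adjusted p from 0.0529 to 0.0786) and the second without 10 nM replicate 5 or vehicle replicate 5 (adjusted p from 0.0705 to 0.107). In VCaP, HERPUD1 −8.0 kb was listed at 10 nM alone, at 32.9, 12.4 and 29.7.

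Other settings took the 10 nM call from some of the regions named above. With all entries as deposited, the 13 named LNCaP calls lost were all falls, those not yet given being ATF6 −0.9 and +208.1 kb, EDEM1 −49.4 and −48.9 kb, CREB3L2 +90.8 kb and HERPUD1 +32.6 kb. With peaks ranked by fold enrichment, 6 rises (ATF6 −42.4 kb, EDEM1 +1.4 kb, DNAJB9 +41.5 kb, DDIT3 +28.7 kb, HERPUD1 −12.5 kb and ERN1 +47.8 kb) and 2 falls (ATF6 +208.1 kb and XBP1 +16.4 kb) were lost in LNCaP. Fitting only the groups compared took 10 named calls in LNCaP and 9 in VCaP, where those at EDEM1 +77.6 kb, CREB3L2 −6.0 kb and −36.9 kb, ERN1 −26.3 kb and XBP1 +40.5 kb were kept. Without VCaP vehicle replicates 1 and 2, 11 of the 14 VCaP calls were lost and ERN1 +55.2 kb could not be tested.

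Low doses moved few of these regions. Against vehicle, 7 of 166 were called in LNCaP (4.22%, against 7.72% of all regions), 6 higher and 1 lower, where 5.92% and 1.79% of all regions were. In VCaP, 2 of 142 were called (1.41%, against 0.797%), 0 higher and 2 lower by limma (genome-wide 0.603% and 0.194%), with 12 at an unadjusted p under 0.05. The 2 VCaP falls were EDEM1 +77.6 kb and ERN1 +55.2 kb, the second listed in vehicle alone. The LNCaP count was 3 without 0.06 nM replicate 4 or 0.1 nM replicate 3. The low-dose calls at ATF6 +182.6 kb and HERPUD1 −42.8 kb were lost by overlap, with no filter on regions and with only the compared groups. Normal scores and leaving out the libraries numbered 5 lost both too. ATF6 +182.6 kb was also lost with all entries as deposited and at a −log10 q of at least 5, and HERPUD1 −42.8 kb when ranked by fold. ERN1 +1.1 kb was lost by overlap, by fold and at that q. The VCaP count was 1 without 0.03 nM replicate 2 or 4, any 0.06 nM library or vehicle replicate 1, and 0 without vehicle replicate 2. Between 10 nM and the low doses, 24 were called in LNCaP (14.5%, against 15.5%), 10 higher and 14 lower (genome-wide 9.37% and 6.11%), and 9 in VCaP (6.34%, against 5.56%), 7 higher and 2 lower (genome-wide 4.35% and 1.21%). With all entries as deposited, the splits of higher and lower against the low doses were 14 and 5 in LNCaP and 5 and 3 in VCaP, and those of low doses against vehicle 4 and 0 (LNCaP) and 1 and 1 (VCaP). Ranked by fold enrichment, the LNCaP splits were 10 and 23 against the low doses and 1 and 1 against vehicle. The LNCaP count was 15 without 10 nM replicate 4 and 11 without replicate 5, and the VCaP count 4 without 10 nM replicate 1 and 5 without replicate 4. All contrasts of a line share libraries, so their counts are not independent.

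Of the 112 regions tested in both lines, 7 were called at 10 nM in each, which is 22.6% of the 31 LNCaP and 58.3% of the 12 VCaP calls among them, against 27.3% and 76.2% over all regions. They were the 5 rises EDEM1 −21.8 kb, EDEM1 −7.8 kb, CREB3L2 −6.0 kb, CREB3L2 −36.9 kb and ERN1 +78.6 kb, and the 2 falls EDEM1 +77.6 kb and ERN1 +55.2 kb. Of these, CREB3L2 −36.9 kb and ERN1 +78.6 kb in both lines, and ERN1 +55.2 kb in VCaP, met the minimum of libraries only through 1 group. No region was called in opposite directions. The differences of the lines correlated across the 112 regions (Pearson's r 0.586, Spearman's rho 0.571), as they did across all regions (r 0.61). Regions near 1 gene are not independent replicates, so no p is given. By the test of the difference itself, 4 of 103 regions changed differently in the lines (3.88%, against 3.01%), 1 higher and 3 lower in LNCaP than in VCaP (genome-wide 1.77% and 1.24%). These were CREB3L2 +38.9 kb on the one side and ATF6 −39.5 kb, CREB3L2 −36.9 kb and XBP1 +40.5 kb on the other. The call at CREB3L2 −36.9 kb has no weight, because that region was tested only through the 10 nM libraries. With all entries as deposited, 3 were called, all higher. The count was 1 without VCaP vehicle replicates 1 and 2, and 2 without LNCaP 10 nM replicate 5 or VCaP 10 nM replicate 4.

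**Figure D5:**
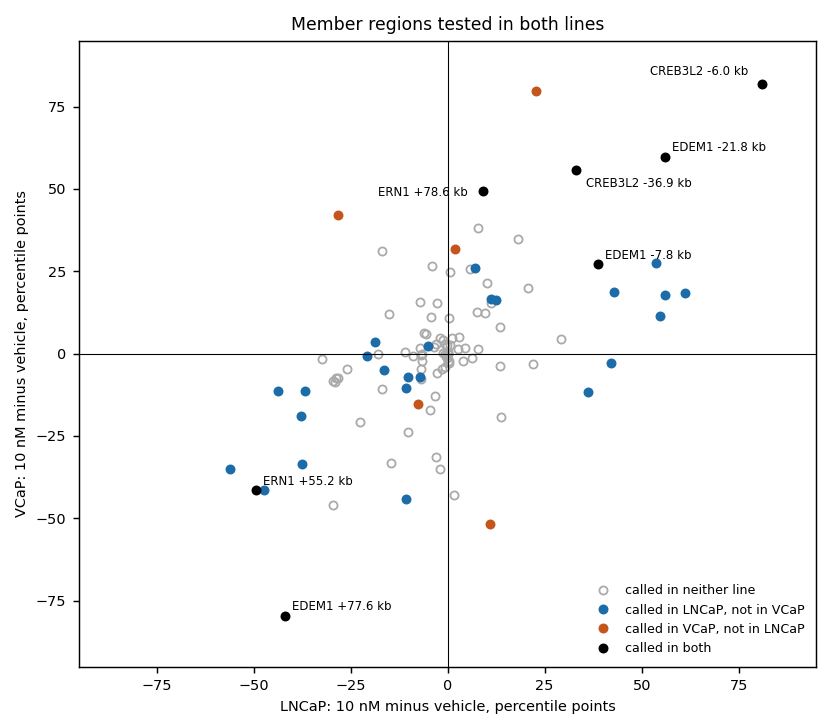
Difference in percentile rank between 10 nM and vehicle in LNCaP (x axis) and VCaP (y axis) at the 112 members' regions tested in both lines. Black points, labelled by gene and distance, are the 7 called in both, all of the same sign in both lines.

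Regions near the 64 other genes of the response were called at 10 nM at shares below those of all regions. They were not split by distance from gene starts. Genome-wide, regions within 1 kb of a start were called less often (8.4% in LNCaP, 1.86% in VCaP). The lower shares are therefore not a result about these genes. All 64 genes had tested regions, 904 in LNCaP and 731 in VCaP. At 10 nM, 105 regions were higher and 61 lower in LNCaP (18.4%, against the 26.3% above), and 30 higher and 14 lower in VCaP (6.02%, against 9.39%). By role in LNCaP, the share called was 27.8% for secretory pathway genes, 19.8% for outputs of the PERK arm, 19.0% for degradation genes, 16.8% for chaperones and folding enzymes, 15.1% for sensors and proteases and 11.3% for transcription factors. At their starts, the strongest region within 1 kb had a peak in all 15 libraries at 59 genes in LNCaP and 57 in VCaP.

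Of these strongest regions, 1 of 61 tested was called at 10 nM in LNCaP by limma and 0 of 62 in VCaP, with 6 and 8 at an unadjusted p under 0.05. Of the regions nearest each start, 2 of 60 were called in LNCaP and 0 of 61 in VCaP, with 6 and 7 at an unadjusted p under 0.05. Genome-wide, 8.4% and 1.86% of regions within 1 kb of a start were called, so these few calls are not a result about the 64 genes. ATF3, a stress-induced transcription factor, had a region 0.67 kb past its start whose mean rank was 4.02 ± 6.97 (SD, n = 3) in vehicle and 47.0, 42.3, 56.6 and 64.5 from 0.03 to 10 nM, a rise of 60.5 (adjusted p = 0.000103). CREB3L4, a relative of CREB3L2 known as androgen-responsive in prostate, had one 0.1 kb before its start that rose by 52.8 (adjusted p = 0.0421), from 23.7 ± 41.1 to 76.5 ± 6.08 (SD, n = 3).

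The 904 tested regions of those 64 genes were compared with EDEM1 +77.6 kb over the 15 LNCaP libraries. Taking 1 region per gene, the 3 whose ranks followed it most closely lay inside SEC24D and near EDEM3 and ATF3. SEC24D encodes a coat protein of export vesicles. Its own start was not among the gene starts compared, and the nearest of these to its region was that of METTL14. EDEM3 is a paralogue of EDEM1. Pearson's r was 0.955, 0.955 and 0.947, picked as the highest of 904 with 1 region per gene. From vehicle to 10 nM the SEC24D region went from 74.6 ± 3.77 to 50.7 ± 4.33, the EDEM3 region, 46.9 kb before its start, from 87.1 ± 3.32 to 52.6 ± 2.90, and the ATF3 region, 36.0 kb before its start, from 92.8 ± 2.35 to 47.4 ± 17.2 (SD, n = 3). The 15 libraries share dose groups, depth and replicate numbers.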

How the data were processed

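Omni-ATAC libraries of LNCaP and VCaP were analysed from 30 peak lists, 1 per library, on GRCh38. Per the submitters' processing notes, MACS2 2.2.7.1 and deepTools 3.5.1 were used besides BWA 0.7.17 and Trimmomatic 0.39, with no role or setting given there. The lists the authors deposited give for each peak a fold enrichment over local background, −log10 p (2 or more in all entries), −log10 q, a score equal to 10 times −log10 p rounded down, and the summit offset. Read counts were not used here, so the depth is unknown.

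Summits of all lists on chromosomes 1 to 22, X and Y were merged into 683008 regions with centres at least 1 window apart, each peak going to the nearest centre. Lists were shortened to the 134964 (LNCaP) or 104924 (VCaP) peaks with the highest −log10 p, and ranked from 0 to 100. Shortening puts lists of unequal length on 1 scale, so a rank is relative to the other peaks of its library. A region entered the fit of a line when 3 or more of its 15 libraries had a peak there. Fits used limma 3.58.1 (R 4.3.3, trend and robust) with group means over the 15 libraries, and p-values were adjusted over all regions tested by the Benjamini-Hochberg method. The lines were compared by an interaction over the 30 libraries, with every list shortened to 104924. The fit was tested on simulated data. Background pileup was percentile 1 of the local backgrounds solved from fold enrichment and −log10 p under a Poisson model. The counts of regions near and farther from gene starts leave out the regions of 1 chromosome, which stay in the fits and in all other counts.

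The members and lists were chosen with earlier results of these data known. Named regions are those nearest each start, up to 3 called rises and 3 called falls a gene and line (otherwise the region of smallest p), every called EDEM1 region, the 4 largest called low-dose differences of each kind, the called line differences, called starts of the 64 other genes, and the 3 regions most like EDEM1 +77.6 kb. Alternatives changed the list length, ranking column, assignment of peaks, q threshold, region filter, libraries fitted and scale, added the replicate number, or left out libraries.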

Additional observations from a re-analysis of the deposited data

Results flagged for a closer look

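At 4 regions LNCaP and VCaP differed in their change at 10 nM by the test of the difference itself (limma over the 30 libraries, lists shortened to 104924, Benjamini-Hochberg over all regions). Differences are the LNCaP change minus the VCaP change, in percentile points, and group values are means ± SD of 3 libraries.

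ATF6 −39.5 kb gave −16.3 (SE 3.83, adjusted p = 0.0157), going from 88.5 ± 0.690 in vehicle to 67.3 ± 4.63 at 10 nM in LNCaP and from 89.0 ± 1.43 to 84.1 ± 2.61 in VCaP. CREB3L2 −36.9 kb gave −41.9, from 0 to 13.8 ± 16.1 in LNCaP and from 0 to 55.7 ± 2.96 in VCaP. It had a peak at 10 nM alone and was tested only through those libraries, so no p is given for it. XBP1 +40.5 kb gave −63.0 (SE 13.1, adjusted p = 0.00579), from 26.0 ± 4.55 to 5.08 ± 8.79 in LNCaP and from 0 to 42.1 ± 8.46 in VCaP. CREB3L2 +38.9 kb gave 65.6 (SE 13.8, adjusted p = 0.00646), from 54.7 ± 21.4 to 68.6 ± 6.999 in LNCaP and from 87.9 ± 6.35 to 36.2 ± 29.7 in VCaP. ATF6 −39.5 kb thus fell more in LNCaP. Without VCaP vehicle replicates 1 and 2 the call was lost at ATF6 −39.5 kb, XBP1 +40.5 kb and CREB3L2 +38.9 kb. With all entries as deposited it was lost at ATF6 −39.5 kb, CREB3L2 −36.9 kb and XBP1 +40.5 kb. At ATF6 −39.5 kb it was also lost without LNCaP 10 nM replicate 5 or VCaP 10 nM replicate 4 (adjusted p from 0.0508 to 0.0622).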

How the results depend on the processing

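Counts of called regions near the 10 genes stayed within 1.5 times the reported ones except as follows and, for left-out libraries and the block, as given further on. At a −log10 q of at least 5 the count was 23 for LNCaP 10 nM against vehicle (42 reported), 4 for LNCaP low doses against vehicle (7), 5 for VCaP 10 nM against vehicle (14), 0 for VCaP low doses against vehicle (2), 5 for VCaP 10 nM against low doses (9) and 1 for the difference between the lines (4). Fitting only the groups compared gave 3 for LNCaP low doses, 6 for VCaP 10 nM, 0 for VCaP low doses and 2 for the lines. Ranking by fold enrichment gave 2 for LNCaP and 1 for VCaP low doses and 8 for the lines, normal scores 14 for VCaP 10 nM against low doses and 2 for the lines, and all entries as deposited 4 for LNCaP low doses. With no filter on regions the low doses gave 4 in LNCaP and 1 in VCaP, and a peak in at least 6 libraries gave 1 for VCaP low doses and 5 for VCaP 10 nM against low doses. Assignment by overlap gave 0 for VCaP low doses. Among alternatives chosen after seeing the data, leaving out the libraries numbered 2 gave 0 and 5 for VCaP low doses and VCaP 10 nM against low doses, and leaving out vehicle libraries 1 and 2 gave 2, 0 and 1 for VCaP 10 nM, VCaP low doses and the lines. Where limma gave 0 for VCaP low doses, 3 to 13 regions had an unadjusted p under 0.05. The cause was not tested.

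Leaving out 1 library at a time gave 29 to 48 calls for LNCaP 10 nM against vehicle, 3 to 8 for LNCaP low doses, 11 to 26 for LNCaP 10 nM against low doses, 8 to 16 for VCaP 10 nM against vehicle, 0 to 2 for VCaP low doses, 4 to 10 for VCaP 10 nM against low doses and 2 to 5 for the lines. Of 75 named calls, 14 were kept under all alternatives and 50 were lost under at least 1, while 37 could not be tested under at least 1. Those kept were 11 of 40 for LNCaP 10 nM against vehicle, and for 10 nM against low doses 2 of 7 in LNCaP and 1 of 4 in VCaP. For VCaP 10 nM against vehicle 0 of 14 were kept. The same held for low doses against vehicle (0 of 4 in LNCaP, 0 of 2 in VCaP) and for the lines (0 of 4). The difference changed sign at ATF6 −0.9 kb (2.72, by overlap), DNAJB9 +41.5 kb (−9.73, by fold enrichment) and ERN1 +1.1 kb (−1.56 at 10 nM and −0.508 at the low doses, by overlap).

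The replicate block gave 38 calls for LNCaP 10 nM against low doses in place of 24. It gave 46 and 9 for LNCaP 10 nM and low doses against vehicle, 21, 3 and 13 for the VCaP comparisons in the order above, and 5 for the lines. Same-numbered libraries deviated together at a correlation over 0.1 in 24 of 30 pairs in LNCaP and 26 of 30 in VCaP (medians 0.140 and 0.138), and those of different number in 9 of 60 and 0 of 60 (medians −0.114 and −0.101). On average 10 of 15 LNCaP and 15 of 15 VCaP libraries correlated best with their own number. LNCaP 10 nM replicate 4 deviated more with the libraries numbered 5. Its r was 0.144, 0.231 and 0.267 with replicate 5 at 0.03, 0.06 and 0.1 nM, and 0.058 in vehicle. With replicate 4 of the same groups it was −0.086, −0.115, −0.132 and −0.039. Leaving out the libraries numbered 5 kept this library, and how far its likeness to them entered the 10 nM differences was not tested. Not every same-numbered pair was over 0.1 and the labels name no shared culture or day, so the fits without the block are the ones reported, and this hint of pairing comes from the data alone. The lists hold no read counts, so depth enters only through list length and the −log10 p.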
